A study of Mus musculus with 2 samples.

Results

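The genes described here encode interleukin-2, interleukin-21, the receptor chains that bind cytokines of the common gamma chain family, and the kinases that carry their signal. They are Il2, Il21, Il2ra, Il2rb, Il4ra, Il7r, Il15ra, Il21r, Jak1 and Jak3. A listed element was given to one of these 10 genes when the nearest protein-coding transcription start to its centre (GENCODE M21 basic set) belonged to that gene and lay within 100 kb. This gave 18 of the 14973 elements listed on chromosomes 1 to 19, X and Y. Of the 10 genes, 9 had at least 1 element, and Il2ra had none. Over all protein-coding genes, 43.0% had one.

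The elements were measured by STARR-seq, in which genomic fragments sit in a reporter on an episome and an active fragment raises its own transcription. The cells were activated T helper 1 (Th1) primary cells of C57BL/6NJ mice, transiently transfected. There was 1 group of 2 output libraries, biological replicates with the same donor identifier, from 30 ug of nucleic acid and a size range of 200 to 400 bp. Culture included interleukin-2 (10 ng/mL, 4 days), interleukin-12 p70 (10 ng/mL, 4 days), an antibody blocking interleukin-4 (2 ug/mL, 4 days), and antibodies to CD3e (0.25 ug/mL, 3 days) and CD28 (1 ug/mL, 3 days). The labels name each agent for both libraries, but the interleukin doses are legible for replicate 1 alone, and for replicate 2 alone the doses against interleukin-4 and CD28. The ligand of Il2ra and Il2rb was thus supplied, and a ligand of Il4ra was blocked. A reporter readout gives no expression level, so the cell type was not checked against marker genes.

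The authors deposited 1 effect per element, made from both libraries. Replicate error and read depth are therefore unknown for every effect given here, and all effects are the authors' own. Neither the scale nor the direction of the effect is stated, and a positive effect is taken here as more reporter output than input. Only elements with an adjusted p under 0.01 were listed, so every element here passed the authors' test, and sequence outside the list was not analysed here.

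Interleukin-2 is made by activated T cells and drives their division and survival. The alpha chain of its receptor, encoded by Il2ra, raises affinity, and the beta chain, encoded by Il2rb, signals with the common gamma chain, which the receptors for interleukins 4, 7, 9, 15 and 21 also use. JAK1 is bound by the signalling chain that pairs with the gamma chain, and JAK3 by the gamma chain. Together they activate STAT factors, above all STAT5, which bind the palindromic GAS element. The gamma chain gene itself, Il2rg, is not among the 10 genes.

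The sequences that bear most on the results are given first, as letters of the mm10 forward strand from the RefSeq copy of GRCm38. Capitals mark matches to the consensus list described below. The first set consists of the 4 elements that hold the STAT consensus TTCNNNGAA and lie outside untranslated regions. All of them are distal elements with a positive effect, and the 300 bp around the centre are shown.
Il4ra, 2.52 kb downstream (chr7:125554489-125554788): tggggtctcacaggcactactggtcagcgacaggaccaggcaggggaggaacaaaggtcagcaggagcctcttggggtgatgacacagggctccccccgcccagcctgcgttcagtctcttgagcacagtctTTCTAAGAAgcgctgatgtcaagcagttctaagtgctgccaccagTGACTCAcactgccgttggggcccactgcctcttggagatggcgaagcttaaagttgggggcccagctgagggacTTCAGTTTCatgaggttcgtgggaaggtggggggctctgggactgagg
Il4ra, 9.32 kb downstream (chr7:125561289-125561588): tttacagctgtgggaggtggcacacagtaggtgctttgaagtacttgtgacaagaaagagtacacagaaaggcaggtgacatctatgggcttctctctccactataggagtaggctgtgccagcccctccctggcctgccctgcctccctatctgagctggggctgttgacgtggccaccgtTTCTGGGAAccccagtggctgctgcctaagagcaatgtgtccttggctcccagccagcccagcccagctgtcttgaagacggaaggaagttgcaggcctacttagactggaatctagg
Il21r, 9.33 kb upstream (chr7:125594014-125594313): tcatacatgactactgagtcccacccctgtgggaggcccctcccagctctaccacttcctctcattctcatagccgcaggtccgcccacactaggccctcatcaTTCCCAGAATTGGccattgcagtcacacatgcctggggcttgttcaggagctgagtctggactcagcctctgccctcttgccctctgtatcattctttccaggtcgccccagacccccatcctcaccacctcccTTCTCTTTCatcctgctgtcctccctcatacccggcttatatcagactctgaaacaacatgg
Jak1, 18.8 kb upstream (chr4:101283964-101284263): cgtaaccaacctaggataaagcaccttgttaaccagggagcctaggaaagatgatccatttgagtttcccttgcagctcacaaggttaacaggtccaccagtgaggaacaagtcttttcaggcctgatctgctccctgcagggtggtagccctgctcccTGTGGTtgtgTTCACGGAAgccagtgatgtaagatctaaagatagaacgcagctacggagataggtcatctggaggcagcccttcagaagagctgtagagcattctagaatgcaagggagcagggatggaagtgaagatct

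The second set holds 3 of the 4 elements with a negative effect. The Il2 element is shown whole, and the others by the 300 bp around the centre. The Jak1 sequence holds a long run of A near its start and 2 AP-1 matches, and the Il7r sequence holds 3 CCAAT matches.
Il2, 6.10 kb downstream (chr3:37119826-37119900): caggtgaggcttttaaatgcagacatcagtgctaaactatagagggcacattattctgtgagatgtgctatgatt
Il7r, 9.21 kb downstream (chr15:9520464-9520763): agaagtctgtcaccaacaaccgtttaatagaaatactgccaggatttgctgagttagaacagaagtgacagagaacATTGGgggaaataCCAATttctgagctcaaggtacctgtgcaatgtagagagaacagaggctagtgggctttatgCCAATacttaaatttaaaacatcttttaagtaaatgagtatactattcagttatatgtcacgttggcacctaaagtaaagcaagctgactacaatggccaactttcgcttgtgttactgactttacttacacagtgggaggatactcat
Jak1, 82.4 kb downstream (chr4:101182764-101183063): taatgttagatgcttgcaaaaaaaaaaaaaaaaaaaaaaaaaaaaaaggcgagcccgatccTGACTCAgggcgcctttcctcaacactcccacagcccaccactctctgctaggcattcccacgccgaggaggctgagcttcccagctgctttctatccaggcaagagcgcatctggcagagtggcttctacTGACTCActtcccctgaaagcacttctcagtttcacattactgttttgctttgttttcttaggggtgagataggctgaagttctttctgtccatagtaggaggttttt

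The next set holds the 2 narrowest positive distal elements, shown whole, of which only the Jak1 element has a consensus match, to AP-1.
Il21, 27.8 kb downstream (chr3:37204701-37204800): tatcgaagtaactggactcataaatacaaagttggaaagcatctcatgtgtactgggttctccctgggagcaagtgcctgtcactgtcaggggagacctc
Jak1, 8.49 kb downstream (chr4:101256751-101256825): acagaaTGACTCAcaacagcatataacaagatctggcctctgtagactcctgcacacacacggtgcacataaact

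The last set shows the parts of the kinase promoter elements that lie outside untranslated regions, for their contrast in base composition. The Jak1 sequence lies downstream of the gene's start, outside its exons, and has an NF-kB match overlapping an SP/KLF match. The Jak3 sequence ends just upstream of the gene's first start and holds an NFAT and an IRF match.
Jak1, promoter (chr4:101264742-101265041): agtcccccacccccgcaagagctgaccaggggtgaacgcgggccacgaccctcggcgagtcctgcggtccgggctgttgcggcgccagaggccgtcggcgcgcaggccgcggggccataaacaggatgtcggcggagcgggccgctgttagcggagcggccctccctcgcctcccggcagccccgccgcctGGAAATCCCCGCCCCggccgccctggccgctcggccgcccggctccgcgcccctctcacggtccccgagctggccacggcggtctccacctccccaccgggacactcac
Jak3, promoter (chr8:71676026-71676295): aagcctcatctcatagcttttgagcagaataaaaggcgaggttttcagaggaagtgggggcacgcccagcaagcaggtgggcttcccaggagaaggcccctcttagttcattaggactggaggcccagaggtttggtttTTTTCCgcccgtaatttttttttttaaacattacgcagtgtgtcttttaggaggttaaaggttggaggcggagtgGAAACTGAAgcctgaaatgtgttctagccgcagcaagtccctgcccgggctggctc

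Of the 18 elements, 14 had a positive effect and 4 a negative one. That is 77.8%, beside 80.7% of all listed elements, so the share of positive elements was near the background. The median effect was 0.72 over the 18 elements and 0.73 over all listed elements. Positive effects of these genes lay between 0.51 and 0.99, with a median of 0.74. All 12083 positive listed elements had a median of 0.80 and reached 7.92. A range widens with the number of values, so the ranges cannot be compared. A single element of the 18, the negative one deep in Jak1, had an absolute effect of at least 1, which 33.9% of all listed elements had. Each of the 18 matched the genome at 1 place.

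**Figure D1:**
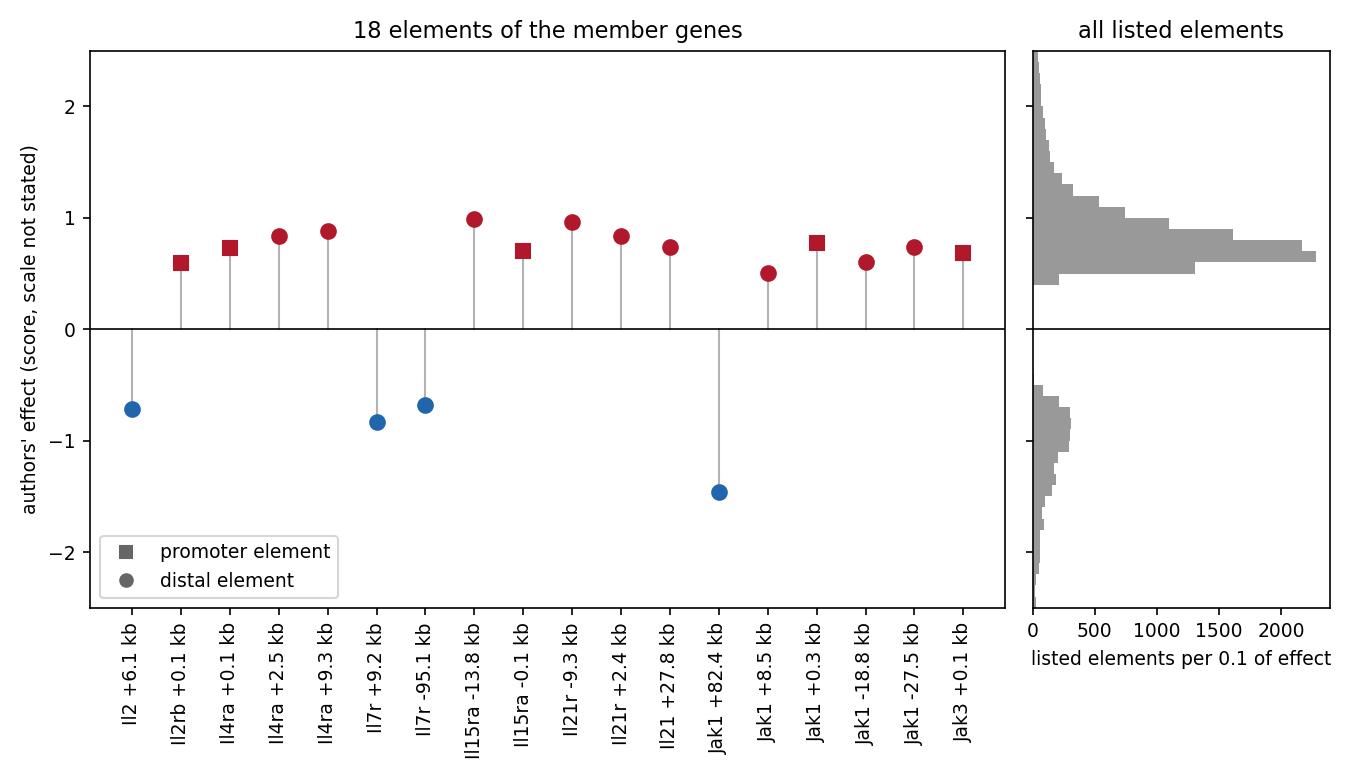
The left panel plots the authors' effect (y axis, a score whose scale is not stated) for each of the 18 elements, named by gene and distance of the centre from the start, and the right panel counts all listed elements over the same part of the effect axis, so that more extreme effects are not drawn. The 14 positive elements sit between 0.51 and 0.99, all 5 promoter elements (squares) are positive, and the lowest value is -1.46 at Jak1.

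The receptor chain genes had 10 elements, of which 8 were positive, a share near the 80.7% of all listed elements. Il4ra, the chain shared by the receptors for interleukins 4 and 13, had 3 elements on chromosome 7, all positive. The first, at 125552126 to 125552300, began just after the gene's start in its 5' untranslated region and had an effect of 0.73 (adjusted p = 9.62e-05 in the authors' deposited table). The next, in an intron at 125554301 to 125554975, had an effect of 0.84 (adjusted p = 0.000181 in the authors' deposited table). The last, also intronic, at 125561151 to 125561725, had an effect of 0.89 (adjusted p = 1.08e-05 in the authors' deposited table). Their effects thus differed by little, and with 1 value each it cannot be said whether they differ beyond replicate error. The intronic pair are the Il4ra sequences printed above, each with 1 STAT match. For the 3 Il4ra elements, 90.3 to 98.2% of listed elements of like GC content and location were positive.

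Il21r, which encodes the private chain of the interleukin-21 receptor, is the neighbour of Il4ra on chromosome 7 and had 2 positive elements. The one at 125593901 to 125594425 is intergenic, 9.33 kb upstream of Il21r and 42.0 kb downstream of the start of Il4ra. Its effect was 0.96, and its adjusted p of 2.19e-06 was the lowest of the 18 elements in the authors' deposited table. The other, in an intron at 125605626 to 125606225, had an effect of 0.84 (adjusted p = 0.000117 in the authors' deposited table). No element was listed within 1000 bp of an Il21r start. Between them Il4ra and Il21r had 5 elements, all positive, with effects of 0.73 to 0.96. Of all listed elements 80.7% were positive. Among listed elements of like GC content and location, 90.3 to 98.2% were.

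Il15ra, whose product presents interleukin-15 to cells with the beta and gamma chains, had 2 positive elements on chromosome 2. The higher of them, at 11691201 to 11691700, had an effect of 0.99, above that of 71.2% of positive listed elements and the highest of the 18 (adjusted p = 6.83e-05 in the authors' deposited table). Its centre lies in the 3' untranslated region of Il2ra, the neighbouring gene, 48.6 kb from the start of Il2ra and 13.8 kb upstream of the nearest start of Il15ra. The rule of the nearest start therefore gave Il15ra an element that is part of the transcribed Il2ra gene. Its sequence holds STAT, AP-1 and NFAT matches and is not printed because it is untranslated mRNA sequence. The promoter element, at 11705251 to 11706025, contains 8 annotated Il15ra starts and had an effect of 0.70 (adjusted p = 0.000455 in the authors' deposited table).

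Il2ra, the high-affinity chain, thus had no element of its own. Within 100 kb of its starts 4 elements were listed, all positive, as 80.7% of all listed elements were. Besides the pair given to Il15ra, both others were nearest to Gm17490, at 16.8 and 19.4 kb upstream of Il2ra, with effects of 0.68 and 0.44 (adjusted p = 0.000447 and 0.0052 in the authors' deposited table). The first of these lies 0.238 kb from the Gm17490 start, and 39.3% of its bases are G or C.

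Il2rb, the signalling chain shared by the receptors for interleukins 2 and 15, had 1 element, at its promoter on chromosome 15 (78493401 to 78494000). Its effect of 0.60 was the lowest of the 5 promoter elements (adjusted p = 0.00137 in the authors' deposited table). A further 11 elements within 100 kb of Il2rb were nearer to other genes. All 11 were positive, as 80.7% of all listed elements were. The highest of them was 1.04, inside Tmprss6 and 44.2 kb downstream of the Il2rb start (adjusted p = 3.56e-07 in the authors' deposited table).

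Il7r, a chain of the receptor for interleukin-7, the survival factor of resting T cells, differed from the other receptor genes in sign. Both of its elements on chromosome 15 were negative, and it had no promoter element. Of all listed distal elements 87.2% were positive. Among listed distal elements of like GC content, 44.6% were positive for the intronic element and 66.6% for the upstream one. The intronic one at 9520401 to 9520825 had an effect of -0.84 (adjusted p = 0.000106 in the authors' deposited table). The other, at 9624651 to 9625175, lies 95.1 kb upstream of Il7r within the gene Spef2 and had an effect of -0.68 (adjusted p = 0.00922 in the authors' deposited table). It is the element closest to the distance limit, followed by the Jak1 element at 82.4 kb. No listed element beyond 100 kb had one of the 10 genes as its nearest start. A further element, nearer to Capsl at 86.0 kb from Il7r, was also negative, at -0.67 (adjusted p = 0.00356 in the authors' deposited table).

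The cytokine genes Il2 and Il21 lie near each other on chromosome 3 and had 1 element each, of opposite sign. The Il2 element, at 37119826 to 37119900, is intergenic, 6.10 kb downstream of the gene's start, with an effect of -0.71 (adjusted p = 0.00853 in the authors' deposited table). The Il21 element, at 37204701 to 37204800, is intergenic, 27.8 kb downstream of the start of Il21 and 78.8 kb from that of Il2, with an effect of 0.74 (adjusted p = 0.000331 in the authors' deposited table). They are among the narrowest of the 18, at 75 and 100 bp, both below the stated size range. Also below it are the Jak1 element 8.49 kb downstream, at 75 bp, and the Il4ra promoter element, at 175 bp. Neither cytokine gene had a promoter element. A further element, 60.2 kb upstream of Il21 and nearer to Cetn4, had an effect of 0.79 (adjusted p = 3.92e-05 in the authors' deposited table).

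The kinase genes had 6 elements, 5 of them positive (83.3%, beside 80.7% of all listed elements). Jak1 had 5 elements on chromosome 4, the most of the 10 genes when elements went to the nearest protein-coding start. With starts of any gene type, or at an adjusted p under 0.001, Jak1 had 2 and Il4ra 3. The promoter element, at 101264576 to 101265450, had an effect of 0.77, the highest of the 5 promoter elements (adjusted p = 0.000262 in the authors' deposited table). The intronic element at 101256751 to 101256825 had the lowest positive effect of the 18, at 0.51 (adjusted p = 0.00218 in the authors' deposited table). Upstream of the gene, the elements at 101283801 to 101284425 and 101292051 to 101293475 had effects of 0.60 and 0.74 (adjusted p = 0.00341 and 0.00112 in the authors' deposited table). The first overlaps an exon of Gm12801, and the centre of the second lies within Gm12796. The centre of the first lies 0.108 kb from a start of Gm12801, which is not among the protein-coding starts used here.

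The remaining Jak1 element, at 101182651 to 101183175, is intronic, 82.4 kb downstream of the start. Its effect was -1.46 (adjusted p = 8.73e-05 in the authors' deposited table), below the median of -1.07 over all negative listed elements. Jak1 thus had 4 positive elements within 27.5 kb of its start and a negative one toward the other end of the gene. A further negative element, at -1.04, was listed 91.1 kb upstream of Jak1 and was nearer to Ak4. In that element 77.4% of bases are G or C, and 28.0% of all listed distal elements with 75% or more were positive.

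Jak3 had 1 element, at its promoter on chromosome 8 (71676026 to 71676775), with an effect of 0.68 (adjusted p = 0.00136 in the authors' deposited table). A further 8 elements within 100 kb were nearer to other genes, and all were positive, as 80.7% of all listed elements were. The highest, 2.15, lay 74.1 kb downstream of the Jak3 starts and was nearer to Fcho1 (adjusted p = 9.31e-06 in the authors' deposited table). Its sequence matched the genome at 2 places, as 5.84% of all listed elements did at 2 or more, and how reads were assigned between copies is not stated.

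**Figure D2:**
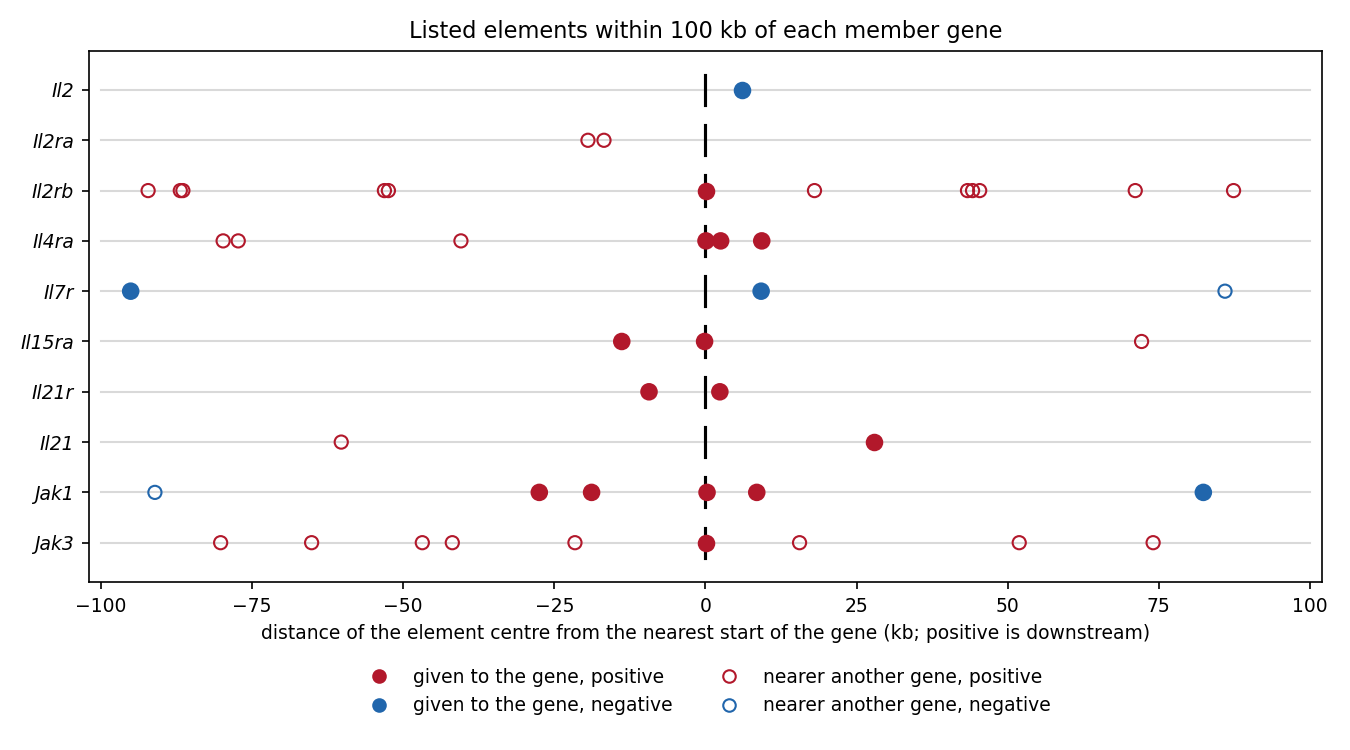
Each point is a listed element, drawn at the distance of its centre from the nearest start of the closest of the 10 genes (x axis, kb, positive downstream of the start). Filled points were given to that gene and open points to a nearer gene outside the 10, with red for positive and blue for negative effects, so that the Il2ra line holds 2 open points and the Jak3 and Il2rb lines hold mostly open ones.

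Around all 10 genes, 28 elements within 100 kb were nearer to a gene outside them, and 26 of these were positive (92.9%), beside 80.7% of all listed elements and 87.2% of distal ones; 4 of the 28 were promoter elements. Their median effect was 0.67, beside 0.72 for the 18 elements. The negative ones are those near Capsl and Ak4. The share given to each gene differed: Il2rb was given 1 of the 12 elements drawn on its line and Jak3 1 of 9, whereas Jak1 was given 5 of 6.

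Promoter elements were positive without exception, and the negative elements were all distal. Of the 2890 negative elements in the whole list, 1005 were distal. Elements with a centre within 1000 bp of a start were listed for Il2rb, Il4ra, Il15ra, Jak1 and Jak3, 5 of the 10 genes, and over all protein-coding genes 30.1% had one. Such elements made up 27.8% of the 18 and 47.8% of all listed elements. The 5 effects lay between 0.60 and 0.77, and 73.6% of all listed promoter elements were positive. Of the 13 distal elements 9 were positive (69.2%), beside 87.2% of all listed distal elements. This difference was not tested.

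Base composition separated the positive from the negative elements in part. The 4 negative elements had GC contents of 37.6% (Il7r, intron), 40% (Il2), 41.0% (Il7r, upstream) and 45.9% (Jak1). The 14 positive ones had a median of 55.8% and ranged over 41.4 to 69.6%. The groups overlap only between 41.4 and 45.9%. Positive elements in that overlap are the one in the 3' untranslated region of Il2ra, at 41.4%, and the intronic Jak1 element, at 45.3%, with the Jak1 element 18.8 kb upstream just above it at 45.9%.

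The same relation is seen over all listed distal elements at lower GC content. Of these, 44.6% were positive under 40% GC and 66.6% at 40 to under 45%. The share was 92.0% at 45 to under 50% and 97.8% at 50 to under 55%. At higher GC content it fell again, to 70.7% at 65 to under 70%, 41.9% at 70 to under 75% and 28.0% from 75%. Among all listed promoter elements it was 18.7% at 70 to under 75% and 4.01% from 75%. In the classes that hold 3 of the negative elements a negative effect was thus common, whereas the Jak1 element at 82.4 kb belongs to a class in which 92.0% of distal elements were positive. The Il15ra element at 13.8 kb had the highest effect of the 18 in a class in which 66.6% were positive. Among promoters the Jak1 element, at 69.6% GC, was positive in a class in which 58.6% were, and the other promoter elements, at 55.5 to 61.7% GC, lay in classes with 90.3 or 96.6% positive.

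**Figure D3:**
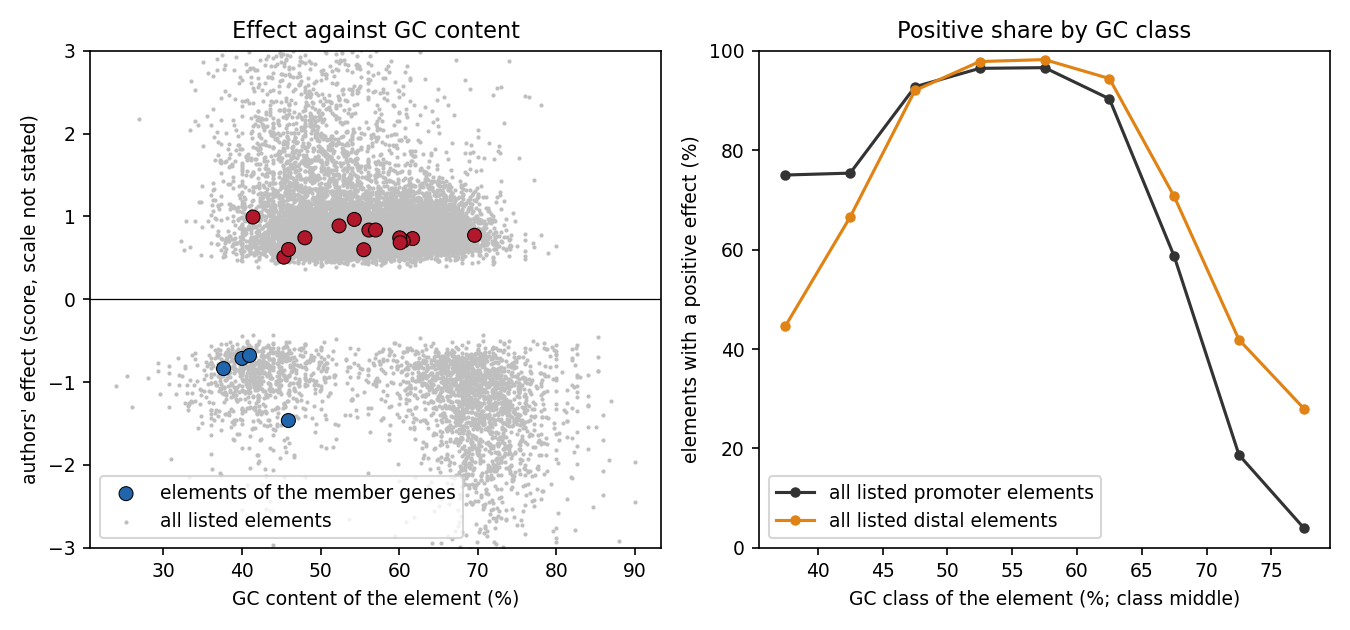
The left panel plots the authors' effect (score) against the GC content of each element, with the 18 elements in red (positive) or blue (negative) over all listed elements in grey and the most extreme effects outside the axis. The right panel gives the percent of all listed elements with a positive effect by GC class, the first class holding all under 40% and the last all of 75% or more, and the 4 blue points lie between 37.6 and 45.9% GC, where the positive share of distal elements goes up with GC content to 92.0%.

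Matches to 14 consensus sequences were counted on both strands in the 300 bp around each centre, and the same was done for all listed elements. In elements narrower than that the window takes in flanking bases, as for both matches of the Il2 element. The STAT consensus TTCNNNGAA was present in 5 of the 18 elements (27.8%) and in 10.3% of all listed elements, or 14.3% of distal and 5.8% of promoter elements. Of the 18 elements 13 are distal, so shares over distal or promoter elements are also given for some of the consensus sequences. The 5 are both intronic Il4ra elements, the intergenic Il21r element, the element in the Il2ra 3' untranslated region and the Jak1 element 18.8 kb upstream. All are distal and positive, with effects of 0.60 to 0.99, and the matches lie 13.5 to 48.5 bp from the centre. The Jak1 element is distal from protein-coding starts only, as its centre lies 0.108 kb from a start of Gm12801. None of the 4 negative and none of the 5 promoter elements held it. Over all listed elements, 11.3% of those with a positive effect held it and 5.95% of those with a negative effect. Of the 2890 negative listed elements 1885 were promoter elements, which held it less often than distal ones. The split by sign was not made within each location. A match is a description of the letters and not a binding site, and no test was made on 18 elements.

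The AP-1 consensus TGANTCA, bound by Fos and Jun factors, was present in 6 elements (33.3%), beside 15.4% of all listed ones. By location these were 4 of the 13 distal elements, beside 25.8% of all listed distal elements, and 2 of the 5 promoter elements, beside 4.03% of all listed promoter elements. These are the promoter elements of Il2rb and Il15ra, the intronic Il4ra element at 2.52 kb, the element in the Il2ra 3' untranslated region and 2 intronic Jak1 elements, of which the negative one holds 2 matches. The IRF consensus GAAANNGAA was present in 4 elements (22.2%), all positive, beside 8.84% of all listed ones. Of these 3 are distal, beside 11.8% of all listed distal elements. The NFY consensus CCAAT was present in 5 (27.8%), beside 31.9%, and 3 of these are the negative elements of Il2 and Il7r. Over all listed elements the split ran the other way, with CCAAT in 34.5% of positive and 21.2% of negative elements. The 2 splits are of unlike elements, as the 3 are distal and 1885 of the 2890 negative listed elements are promoter elements. Shares by sign were not computed within location or GC class, and the Il2 match lies in flanking bases.

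RUNX (TGTGGT) was present in 3 elements, 2 of them distal, beside 18.4% of all listed and 25.9% of distal elements, and SP/KLF (GGGGCGGGG) in 3, beside 11.2%. The SP/KLF matches are those of the Il4ra, Jak1 and Jak3 promoter elements, 3 of 5, beside 19.2% of all listed promoter elements. NFAT (GGAAAA), NF-kB (GGGANTTCC) and the octamer (ATGCAAAT) were present in 1 element each, beside 18.6%, 2.33% and 1.58% of all listed elements. ETS (CCGGAAG), CRE (TGACGTCA), T-box (AGGTGTGA), the E-box (CACGTG) and the GATA consensus (AGATAA) were found in none of these windows, beside 9.29%, 2.04%, 1.03%, 7.07% and 6.89% of all listed elements. ETS was present in 3.77% of all listed distal and 15.3% of promoter elements, GATA in 10.4% and 3.01%, and NFAT in 22.2% and 14.7%. In the Jak1 promoter the NF-kB and SP/KLF matches overlap, as do both SP/KLF matches of the Jak3 promoter and the adjoining STAT and NFY matches upstream of Il21r. The printed promoter sequences cover other bases than the central window, so the NFAT and IRF matches seen in the Jak3 sequence are not in these counts.

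**Figure D4:**
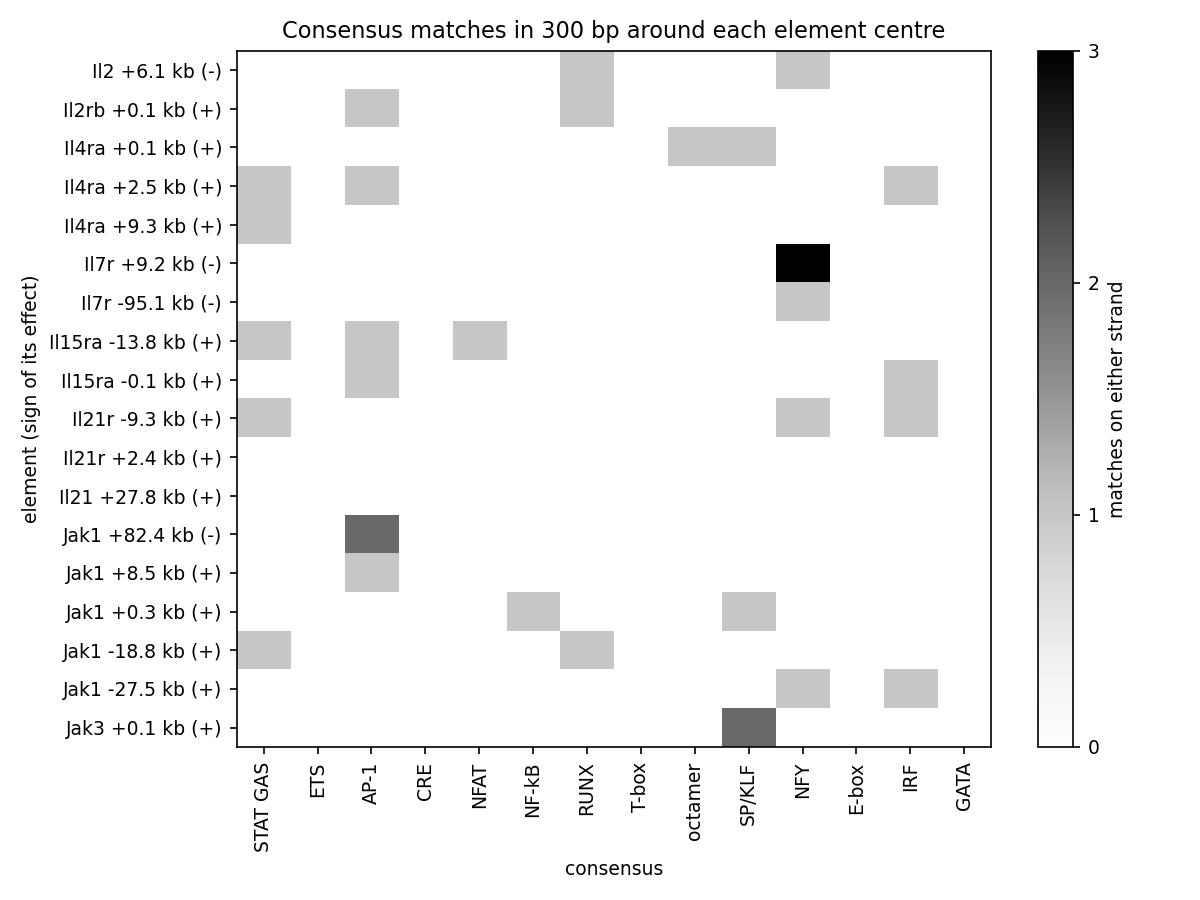
Rows are the 18 elements with the sign of their effect and columns the 14 consensus sequences, and shading gives the number of matches on either strand in the 300 bp around the centre (0 to 3). The 5 STAT matches all fall in positive elements, and the darkest field is the intronic Il7r element with 3 CCAAT matches.

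Other genes of the pathway were taken from a list of 36 that holds further ligands and receptor chains, STAT factors, feedback inhibitors, adaptors and target genes. Of these, 31 had at least 1 listed element, beside 43.0% of all protein-coding genes, and Il2rg, Il7, Il9r, Il13ra1 and Stat5a had none. They were given 66 elements, of which 52 were positive (78.8%), again near the 80.7% of all listed elements, with a median effect of 0.69. The 6 genes with the largest absolute mean effect were Gab2, Cish, Stat3, Il15, Pim1 and Crlf2. Cish, an inhibitor of cytokine signalling induced by STAT5, had 2 positive elements, at its promoter (0.93, adjusted p = 6.79e-06 in the authors' deposited table) and 16.3 kb downstream (1.83, adjusted p = 7.9e-09 in the authors' deposited table).

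Stat3, which acts below the interleukin-21 receptor, had 1 element, at its promoter, with an effect of 1.22 (adjusted p = 2.91e-07 in the authors' deposited table). Il15, a ligand of the receptor that Il15ra completes, had a promoter element with an effect of 0.81 and one 97.2 kb away with an effect of 1.59 (adjusted p = 0.000745 and 0.00641 in the authors' deposited table). Pim1, a survival kinase, had 2 elements, with effects of 1.20 and 1.18, and Crlf2, the receptor chain for thymic stromal lymphopoietin, had 2, with effects of 1.44 and 0.92. Gab2, an adaptor, had 1 negative element, at a promoter with 72.8% GC (-1.66, adjusted p = 9.81e-08 in the authors' deposited table).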

How the data were processed

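STARR-seq output libraries of activated Th1 cells from 2 biological replicates were combined by the authors in 1 table of elements, made, per the file headers, from mm10 alignments. The aligner, element caller, test and input library were not stated in these sources. The deposited effect is a signed score of unstated scale, and the deposited p-value and adjusted p-value come from the authors' test, which was not repeated. Of 14994 deposited elements, 21 on other scaffolds were left out. Deposited starts count from 1, as the deposited widths include both ends.

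Elements were assigned to the nearest start of a protein_coding transcript within 100 kb with GENCODE M21. GC content and consensus matches were read from GRCm38, which matches mm10, with pysam 0.24.0 and samtools 1.23.1 under Python 3.11.15. Copies were counted with minimap2 2.31 (k = 19, w = 10, N = 50, p = 0.5) as matches of the 300 bp around the centre at 95% identity over at least 240 bp. Printed sequences avoid untranslated regions of GENCODE and RefSeq.

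The genes, the list of other pathway genes and the consensus sequences were chosen with earlier results of these data known, so counts stand beside the share over all listed elements and no test was made. The text names every member gene and element, the neighbouring elements of Il2ra, and the 6 other pathway genes with the largest absolute mean effect. Further neighbouring elements (near Il2rb, Il7r, Il21, Jak1 and Jak3) were singled out after their values were seen. As a check of the code alone, 200 of 200 artificial elements placed nearest to an annotated start were given to its gene. Likewise 280 of 280 exact consensus matches planted in random A and T letters were found. Alternatives were other distance limits, start sets and promoter windows, stricter thresholds, merged elements and other consensus windows.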

Additional observations from a re-analysis of the deposited data

How the results depend on the processing

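No paired analysis was possible because the deposited table holds 1 value per element for both libraries, and no replicate could be left out. Of 78 values under the alternatives, 59 stayed within 1.5 times the reported count or, for the median, equal at 2 decimals. This limit is wide, as a fall from 18 to 12 elements or from 9 to 6 genes stays within it. Some of the values could not move. A consensus absent from 300 bp is absent from the 200 bp inside it, and promoter elements cannot be lost at shorter distance limits. With every element within 100 kb of a start of the 10 genes counted, there were 46 elements, 40 of them positive, with a median effect of 0.69. At an adjusted p under 0.001 there were 11 elements of 6 genes, 9 of them positive and 3 at promoters, with a median of 0.77. At an absolute effect of at least 1 there was 1 element of 1 gene, the negative Jak1 element, with 0 positive and 0 promoter elements, so that the median turned to -1.46. At a distance limit of 50 kb the median was 0.74. With starts of any gene type, 12 elements of 7 genes were left, and both the highest and the lowest effect were among the 6 lost. Il2 and Il21 then had none, the nearest starts being Gm12584 at 3.13 kb from the Il2 element and Gm12532 at 21.9 kb from the Il21 element. The Il15ra element with an effect of 0.99 was nearest to Gm37881 (8.32 kb). Jak1 kept 2 of 5 elements: the one at -1.46 was nearest to Gm24468 (3.85 kb), and both upstream ones to Gm12801 (0.108 and 8.54 kb). At an adjusted p under 0.001 Jak1 also had 2, and Il4ra had 3 in both cases. Under these alternatives the positive share and the share of genes were not computed over the whole list. The counts therefore do not show whether the 10 genes differ from other genes. In the 200 bp around the centre, RUNX was present in 1 element and IRF in 2, beside 12.9% and 6.16% of all listed elements. In whole elements, CRE was present in 1, NFAT in 2, NFY in 8 and IRF in 7, beside 3.61%, 33.7%, 48.4% and 15.4% of all listed elements. The STAT consensus was present in 5 elements in 200 bp and in 6 in whole elements, beside 7.25% and 16.9% of all listed elements. The differences follow from fewer or more elements or bases being counted.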
